A study of Mus musculus with 12 samples.

Results

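The genes described here take up, make, break down, carry or sense retinoic acid, and they are Stra6, Rdh10, Dhrs3, Cyp26a1, Crabp1, Crabp2, Rara, Rarb and Rarg. They were listed by gene name, with earlier results of these data known. They are 9 of the 19057 genes named by probes of the Illumina MouseWG-6 v2 bead array and 9 of the 11621 genes that passed a filter on detection. Of their 16 probes, 12 passed that filter (a detection p-value under 0.05 on at least 2 arrays) and 3 were detected on none. The cells were F9, a mouse teratocarcinoma line whose stem-like cells turn into endoderm when given retinoic acid. Control cells (labelled CTL, with wild-type Kdm3a expression) and pRS-kdm3a cells (labelled a Kdm3a knock-down) were each taken untreated (0 h), after 3 days in retinoic acid (72 h), and after those 3 days plus 3 more in retinoic acid and cAMP together (6 d). That gave 6 groups with 2 arrays in each, which the labels call biological replicates. What construct the control cells carry, and whether either line was grown from a single clone, the sources used here do not state.

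Retinol enters the cell through Stra6 and is oxidised first to retinaldehyde and then to retinoic acid. Retinoic acid is held in the cytosol by the Crabp proteins, destroyed by the Cyp26 enzymes, and sensed in the nucleus by the receptors Rara, Rarb and Rarg, which bind DNA together with an Rxr partner. The receptors recognise a response element made of a pair of hexamers in direct repeat, most typically with 5 bases between them, and several genes of the pathway are themselves textbook targets of retinoic acid. F9 cells are a classic model of this response, in which retinoic acid yields primitive endoderm and added cAMP yields parietal endoderm.

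Promoters of the genes were searched for that element, since the receptors bind it and the genes below differ in their response to the same treatment. The windows were those of RefSeq (build GRCm38.p6), from 250 bases before to 50 bases after each transcription start, and 7 of the 9 genes had at least 1 window, 16 in all. The hexamers searched were AGGTCA and AGTTCA and GGGTCA and GGTTCA, on both strands, counted as direct repeats with 1, 2 or 5 bases between them. A repeat with 5 bases between was found in 2 of the 16 windows, those of Cyp26a1 and Rarb, and in 32 of the 32851 windows of all genes (0.0974%). Repeats with 1 or 2 bases between were in no window of these genes, against 0.222% and 0.268% of all windows. At least 1 hexamer was found in 6 of the 16 windows (37.5%), against 43.7% of all windows. A match here describes letters and is not shown to be a bound site, and hexamers may lie outside these windows.

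The 2 repeats are shown with their hexamers in capitals, each read 5′ to 3′ on the strand where it is a direct repeat. That of Cyp26a1 lies at chr19:37697776-37697792 on the minus strand, from -32 to -16 relative to the start, and that of Rarb at chr14:16575513-16575529 on the minus strand, from -53 to -37.
Cyp26a1 element: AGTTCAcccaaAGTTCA
Rarb element: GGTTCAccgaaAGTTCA

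The 250 bases before these 2 starts are shown for their context, beside the Rara window with the most hexamers of any here (4, none of them in such a repeat), again with every hexamer of either strand in capitals. They are chr19:37697558-37697807 on the plus strand for Cyp26a1, chr14:16575477-16575726 on the minus strand for Rarb and chr11:98939461-98939710 on the plus strand for Rara. A window with at least 4 hexamers was found for 0.581% of all windows.
Cyp26a1: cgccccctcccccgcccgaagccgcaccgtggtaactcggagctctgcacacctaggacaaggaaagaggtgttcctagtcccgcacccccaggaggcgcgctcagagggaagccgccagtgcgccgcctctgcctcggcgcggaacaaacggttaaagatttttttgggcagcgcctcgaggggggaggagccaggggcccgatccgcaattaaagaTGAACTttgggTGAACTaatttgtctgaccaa
Rarb: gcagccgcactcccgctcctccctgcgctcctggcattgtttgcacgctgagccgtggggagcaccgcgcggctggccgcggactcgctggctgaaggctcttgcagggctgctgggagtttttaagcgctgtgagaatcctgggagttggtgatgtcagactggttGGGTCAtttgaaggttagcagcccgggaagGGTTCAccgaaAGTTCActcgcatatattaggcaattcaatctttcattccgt
Rara: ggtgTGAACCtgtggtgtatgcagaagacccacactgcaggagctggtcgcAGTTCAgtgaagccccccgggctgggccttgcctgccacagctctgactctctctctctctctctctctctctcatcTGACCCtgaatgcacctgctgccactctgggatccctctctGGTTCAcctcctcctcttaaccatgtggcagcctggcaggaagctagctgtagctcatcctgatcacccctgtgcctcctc

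**Figure D1:**
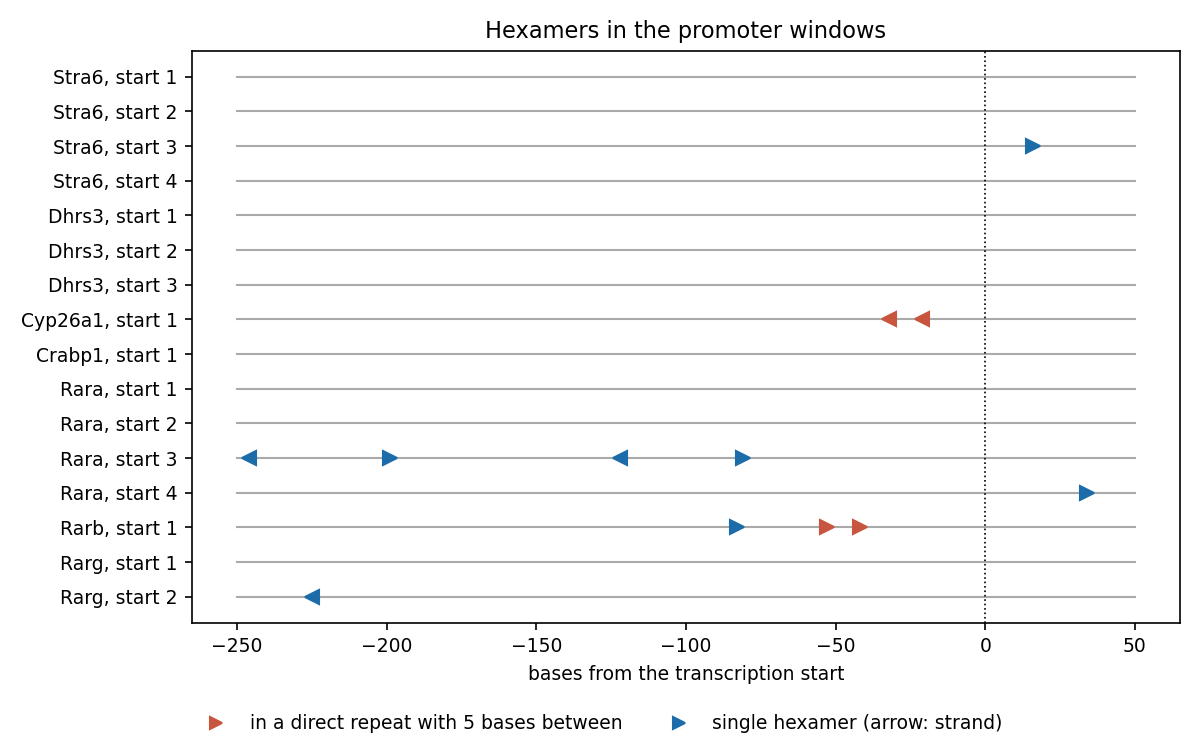
Each line is the promoter window of 1 RefSeq transcription start, from 250 bases before it to 50 after it, with distance from the start on the horizontal axis. Arrowheads mark hexamers and point along their strand. Red ones belong to a direct repeat with 5 bases between, which only the Cyp26a1 and Rarb windows hold, and blue ones stand alone, 4 of them in the third Rara window.

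Raw median intensities of the 12 arrays lay between 124.8 and 219.8, and 33.6% to 40.8% of probes were detected per array. Kdm3a itself, measured on the log2 scale, had values in the control cells of 9.97 with 9.98 untreated, 9.78 with 9.90 after 72 h, and 9.29 with 9.12 after 6 d. In the knock-down cells it was 8.93 with 8.88 at 0 h, 8.17 with 8.06 at 72 h, and 7.76 with 7.53 at 6 d. Every knock-down array was below both control arrays of its stage, and averaged over the 3 stages the difference was -1.45 (SE 0.11, limma adjusted p = 5.78e-04). The summed intensity of 7 primitive endoderm genes ran from 1007 to 1020 in control cells at 0 h, from 13327 to 14873 at 72 h and from 17536 to 17565 at 6 d. That of 10 parietal endoderm genes ran from 7263 to 9630, from 95148 to 98972 and from 95693 to 155796 at the same stages. Most of these 10 were thus detected by 72 h (9 on both control arrays), while Thbd, another of them, was detected at 6 d alone. Of the 10 stem cell markers, 9 were still detected at 72 h and at 6 d in both lines. In control cells the 10 summed to 67788 to 68591 at 0 h, 60501 to 66335 at 72 h and 52239 to 55657 at 6 d. On the log2 scale, from 0 h to 6 d in control cells, Nanog went from 12.23 to 11.76, Pou5f1 from 12.89 to 11.93 and Sox2 from 9.28 to 7.81. In such bulk samples fewer cells of a type and less RNA per cell cannot be told apart. Over 19450 probes detected on no array, replicate 2 of the knock-down at 0 h and replicate 2 of either line at 6 d resembled each other (correlations 0.427 to 0.449, against 0.131 to 0.349 with other arrays), and so did the 4 arrays of 72 h (0.444 to 0.520, against 0.131 to 0.281). Calls among the 9 genes that change without the first 3 arrays are given both ways, and the likeness of the 72 h arrays cannot be told apart from their stage.

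Most of these genes differed after retinoic acid, and they did so in both lines. The series holds no untreated arrays at 72 h or 6 d, so the treatment cannot be told apart from time in culture. At 6 d it cannot be told apart from the added cAMP either. In control cells at 72 h, Cyp26a1, Stra6, Crabp2 and Rarb rose and Rarg fell (for Rarg the change was 0.041, not a fall, when arrays were centred on their medians), 5 of 9 genes against 14.8% of all genes tested. In knock-down cells at 72 h Rdh10 and Dhrs3 rose as well and Rara fell as well, 8 of 9 against 16.4%. With median centring 6 genes rose and 0 fell at 72 h in each line, the 4 risers named first with Rdh10 and Crabp1 in control cells and with Rdh10 and Dhrs3 in knock-down cells. In that setting 36.4% and 39.8% of all genes were called, 34.5% and 37.3% of all genes as risers. The median change of the 9 genes at 72 h was 0.82 in control cells, against -0.02 over all genes, and 0.99 in knock-down cells, against 0.00. At 6 d against 0 h, Cyp26a1, Stra6, Crabp2 and Rarb were up and Rarg was down in both lines, joined by Rdh10 in control cells (6 of 9 against 22.2%) and by Dhrs3 in knock-down cells (6 of 9 against 22.3%). A gene that passed the filter only through the groups where it was high had to differ from the other groups, so these counts describe the genes and are not a test of the group. That holds for genes detected only after treatment, and for Rara, which passed through the untreated knock-down arrays. It holds for genes of the lists below as well. Changes are tested with limma on the log2 scale, a call is an adjusted p under 0.05 over all 11621 genes, and all values below are log2 normalized intensity of 1 probe unless named otherwise. Centring on medians put the median of all genes at 72 h at 0.58 in control cells and 0.61 in knock-down cells, and it moved single genes by less or by more than that.

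**Figure D2:**
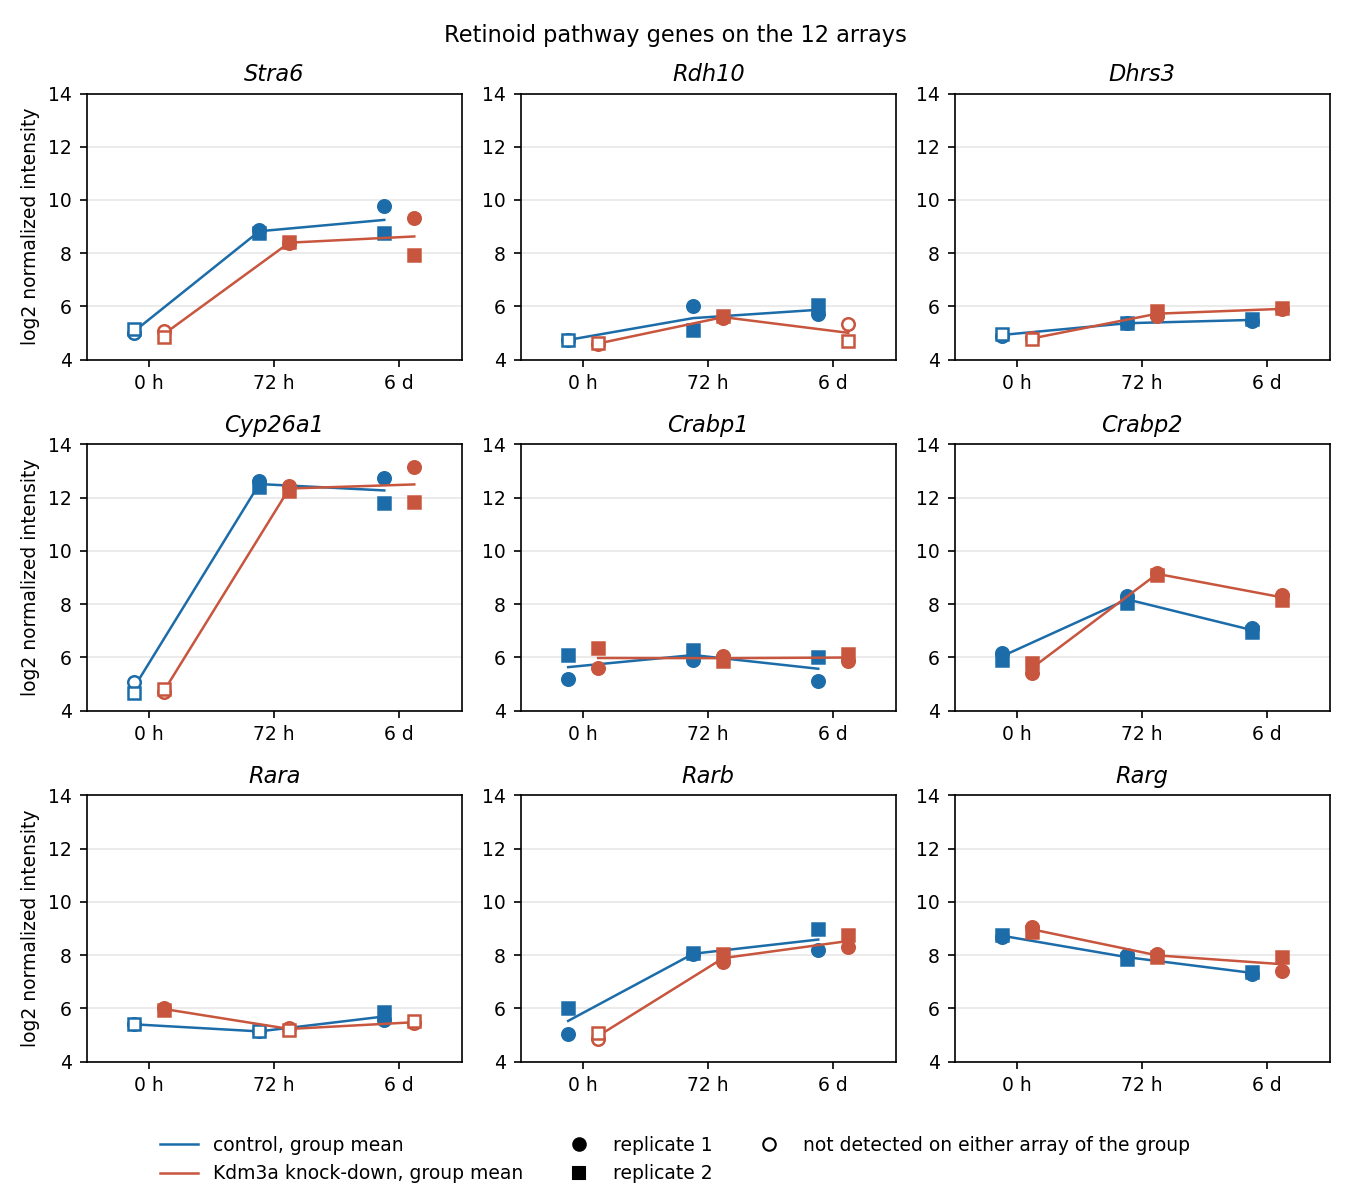
Log2 normalized intensity of the 9 genes (vertical axis) in control cells (blue) and Kdm3a knock-down cells (red) at 0 h, 72 h and 6 d, with circles for replicate 1, squares for replicate 2, lines through the group means and open symbols for groups in which neither array detected the gene. Cyp26a1 goes from undetected to above 11.8 on every treated array, the lines differ most in Crabp2 after treatment, and Rarg declines in both lines (at 72 h only on this scale, not with median centring).

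Stra6, the membrane receptor that brings retinol into the cell, was detected on neither array of either line at 0 h and on all 8 arrays after treatment. In control cells it measured 4.99 and 5.14 at 0 h, then 8.87 with 8.78 at 72 h, then 9.76 with 8.74 at 6 d. The knock-down arrays gave 5.07 and 4.86, 8.37 and 8.42, and 9.34 and 7.92. Treated and untreated arrays were thus far apart in both lines, while 72 h and 6 d overlapped. The rise by 72 h was 3.76 in control cells (SE 0.42, adjusted p = 1.81e-04) and 3.43 in knock-down cells (SE 0.42, adjusted p = 3.58e-04). Because the 0 h level is only a limit, the fold is given as a bound, taken against the higher of the gene's own signal and the lowest signal of any detected probe on each 0 h array: at least 9.09-fold and at least 6.63-fold, and by 6 d at least 12.2-fold and at least 7.79-fold. From 72 h to 6 d the change was 0.43 (adjusted p = 0.625) and 0.23 (adjusted p = 0.782), and replicate 2 was the lower array of either line at 6 d. Without the 3 arrays that resemble each other the same step was 0.93 (adjusted p = 0.0483) and 0.94 (adjusted p = 0.0294), so the step was called only without those arrays.

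Rdh10, which oxidises retinol to retinaldehyde on the way to retinoic acid, stayed close to the limit of detection. It measured 4.72 and 4.76 in control cells at 0 h, where it was not detected, 6.00 and 5.12 at 72 h, where only replicate 1 detected it, and 5.70 and 6.05 at 6 d. The knock-down cells gave 4.59 and 4.63 at 0 h, then 5.57 with 5.62 at 72 h, then 5.33 with 4.68 at 6 d, where again neither array detected it. In both lines the 72 h arrays lay above the 0 h arrays, and at 6 d only the control arrays detected the gene. The control difference by 72 h was 0.82 (SE 0.30, adjusted p = 0.0992), called with median centring (0.96, adjusted p = 0.0343) and without the 3 arrays named above (0.82, adjusted p = 0.0493). The calls were the control rise by 6 d (1.13, SE 0.30, adjusted p = 0.0213, at least 1.18-fold) and the knock-down rise by 72 h (0.99, SE 0.30, adjusted p = 0.0478), for which the limit at 0 h allows no fold. The control call did not hold when control 0 h replicate 1 (adjusted p = 0.0964), control 0 h replicate 2 (0.0841), control 6 d replicate 2 (0.113) or the 3 arrays that resemble each other (0.0568) were left out, and the knock-down call did not hold without any 1 of its 4 arrays (adjusted p = 0.144 to 0.184). The knock-down call was also lost with the authors' own normalization (0.41, adjusted p = 0.0533), an offset of 50 (0.51, 0.103), no detection filter (0.99, 0.0585), a block for the 3 arrays named above (0.95, 0.0654) and without those arrays (1.01, 0.0595).

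Dhrs3, which turns retinaldehyde back into retinol and so holds retinoic acid down, was not detected at 0 h in either line. Control cells gave 4.89 and 4.97 at 0 h, then 5.36 with 5.38 at 72 h, then 5.45 with 5.54 at 6 d. Knock-down cells gave 4.82 and 4.78, 5.64 and 5.81, and 5.89 and 5.93. Each treated array was above each untreated array of its line, by a small distance. The knock-down rise was called at 72 h (0.93, SE 0.19, adjusted p = 0.00675, at least 1.04-fold) and at 6 d (1.11, SE 0.19, adjusted p = 0.00159, at least 1.18-fold), the first not without knock-down 72 h replicate 2 (0.85, adjusted p = 0.0599) and the second not on the compared arrays alone (adjusted p = 0.0548). The control difference was 0.44 at 72 h (adjusted p = 0.143) and 0.56 at 6 d (adjusted p = 0.0507), neither called, the second passing under 5 of the 14 other settings (adjusted p = 0.0350 to 0.0459). The probe behind these values is annotated to a cDNA clone, and the probe for the RefSeq transcript of Dhrs3 was detected on no array.

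Cyp26a1, the enzyme that oxidises retinoic acid for disposal, had the largest change of the 9 genes in both lines at both stages against 0 h. It measured 5.10 and 4.67 in control cells at 0 h, undetected on both, then 12.61 and 12.42 at 72 h and 12.74 and 11.81 at 6 d. In knock-down cells it measured 4.69 and 4.82, again undetected, then 12.44 and 12.25, and 13.17 and 11.83. The gap between untreated and treated arrays was over 6 log2 units in each line, and at 72 h and 6 d the lines overlapped. The control rise by 72 h was 7.63 (SE 0.41, adjusted p = 9.49e-07) and the knock-down rise 7.59 (SE 0.41, adjusted p = 1.61e-06), that is at least 117-fold and at least 102-fold. By 6 d it was 7.39 (at least 99.3-fold, adjusted p = 7.66e-07) and 7.74 (at least 114-fold, adjusted p = 8.62e-07). A second probe of the same transcript rose by 4.41 in control cells and by 4.04 in knock-down cells at 72 h. Between 72 h and 6 d the brighter probe changed by -0.24 in control cells and 0.15 in knock-down cells (adjusted p = 0.795 and 0.861), the other probe by 0.45 and 0.58, and the 95% interval of the first ran from -1.14 to 0.65. This is the gene whose repeat, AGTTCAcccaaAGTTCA, sits nearer to its start than that of Rarb does. Whether the place of the repeat bears on the size of the rise was not tested.

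Crabp2, the binding protein that hands retinoic acid to its receptors in the nucleus, rose at 72 h and then came partway down. In control cells it measured 6.18 and 5.90 at 0 h, then 8.33 with 8.04 at 72 h, then 7.10 with 6.95 at 6 d. In knock-down cells it measured 5.41 and 5.80, 9.17 and 9.11, and 8.35 and 8.16. No 2 stages overlapped in either line, and the order was 0 h, then 6 d, then 72 h in both. The rise by 72 h was 2.14 in control cells (4.40-fold, SE 0.22, adjusted p = 1.20e-04) and 3.53 in knock-down cells (11.6-fold, SE 0.22, adjusted p = 4.15e-06). From 72 h to 6 d Crabp2 fell by 1.16 in control cells (SE 0.22, adjusted p = 0.0264), 1 of 9 genes against 2.53% of all genes, and differed by -0.88 in knock-down cells (SE 0.22, adjusted p = 0.0540), where limma called 0 of 9 against 3.83% (at an unadjusted p under 0.05, 1 of 9 against 21.2%). The control call was lost without any 1 of its 4 arrays (-1.30 to -1.01, adjusted p = 0.0642 to 0.258), while the knock-down difference was called under 6 of the 14 other settings. At 6 d Crabp2 was still above 0 h, by 0.98 in control cells (adjusted p = 0.00933) and 2.65 in knock-down cells (adjusted p = 1.48e-05), the first not without control 0 h replicate 2 (0.84, adjusted p = 0.0766) or control 6 d replicate 1 (0.90, adjusted p = 0.0513).

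Crabp1, the related binding protein of the cytosol that is tied to retinoic acid breakdown, did not pass the test in any comparison, although its control change by 72 h did with median centring (1.05, adjusted p = 0.0170, against 0.45, adjusted p = 0.469). It measured 5.20 and 6.07, 5.89 and 6.29, and 5.12 and 6.03 in control cells at 0 h, 72 h and 6 d. Knock-down values were 5.62 and 6.34, 6.07 and 5.88, and 5.87 and 6.12. All 6 groups overlapped, and the 2 control arrays at 0 h (SD 0.62, n = 2) lay further apart than any group means did. The 95% interval of its control change by 72 h ran from -0.37 to 1.28, so a change within that range was not detectable on this scale.

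Rarb, the receptor that is itself a classic retinoic acid target, rose in both lines. It measured 5.05 and 6.01 in control cells at 0 h, detected only on replicate 2, then 8.04 with 8.07 at 72 h, then 8.20 with 8.98 at 6 d. The knock-down arrays gave 4.84 and 5.09, undetected on both, then 7.75 and 8.03, and 8.32 and 8.74. The stages did not overlap within a line, in the order 0 h, 72 h and 6 d, although the step from 72 h to 6 d did not pass the test (0.53, adjusted p = 0.439, and 0.64, adjusted p = 0.305). The rise by 72 h was 2.52 in control cells (5.74-fold, SE 0.34, adjusted p = 6.92e-04) and 2.93 in knock-down cells (SE 0.34, adjusted p = 2.77e-04, at least 4.67-fold). By 6 d it was 3.06 (8.31-fold, adjusted p = 1.02e-04) and 3.57 (at least 7.29-fold, adjusted p = 3.56e-05). A second probe rose by 2.84 and 3.05 at 72 h, and another was detected on no array. Rarb and Cyp26a1 are the genes whose promoter windows hold the repeat with 5 bases between, and Stra6 and Crabp2 rose without one in the windows examined (Stra6) or with no window to examine (Crabp2).

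Rarg, the receptor through which much of the differentiation of F9 cells is known to run, went the other way. It measured 8.70 and 8.76 in control cells at 0 h, then 8.01 with 7.84 at 72 h, then 7.31 with 7.35 at 6 d. Knock-down values were 9.07 and 8.87, 8.06 and 7.93, and 7.40 and 7.92. The arrays of 0 h were above all later arrays of their line. By 6 d Rarg had fallen by 1.40 in control cells (to 37.9% of the 0 h level, SE 0.22, adjusted p = 0.00111) and by 1.31 in knock-down cells (to 40.4%, SE 0.22, adjusted p = 0.00167), and both calls held under each of the 14 other settings. At 72 h it had fallen by 0.81 (adjusted p = 0.0323) and by 0.98 (adjusted p = 0.0125), but with median centring the values were 0.041 and -0.13 and neither was called, nor with the mean of its probes (-0.58, adjusted p = 0.113, and -0.65, adjusted p = 0.0699). The control call at 72 h was also lost without any 1 of its 4 arrays (adjusted p = 0.112 to 0.210), and the knock-down call without knock-down 0 h replicate 1 (-0.88, adjusted p = 0.0777), 72 h replicate 1 (-1.04, 0.0578) or 72 h replicate 2 (-0.91, 0.0879). Another probe detected on all 12 arrays differed by -0.35 and -0.33 at 72 h and by -1.10 and -1.13 at 6 d.

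Rara, the widely expressed receptor, was near the limit of detection. It measured 5.41 and 5.40 in control cells at 0 h, 5.14 and 5.14 at 72 h, both undetected, and 5.55 and 5.85 at 6 d, detected on 1 array. In knock-down cells it measured 6.03 and 5.92 at 0 h, detected on both arrays, 5.27 and 5.19 at 72 h and 5.45 and 5.52 at 6 d, all undetected. The untreated knock-down arrays were the highest of the 12. Rara passed the filter only with these arrays, so differences from them followed in part from the filter and are description only. The 1 call was the knock-down fall from 0 h to 72 h (-0.75, SE 0.19, adjusted p = 0.0243, at least 1.48-fold lower), which was lost without any 1 of its 4 arrays (adjusted p = 0.0847 to 0.128), with median centring (-0.41, adjusted p = 0.262), with the authors' own normalization (-0.23, adjusted p = 0.144) and with a larger background offset (-0.45, adjusted p = 0.0641).

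**Figure D3:**
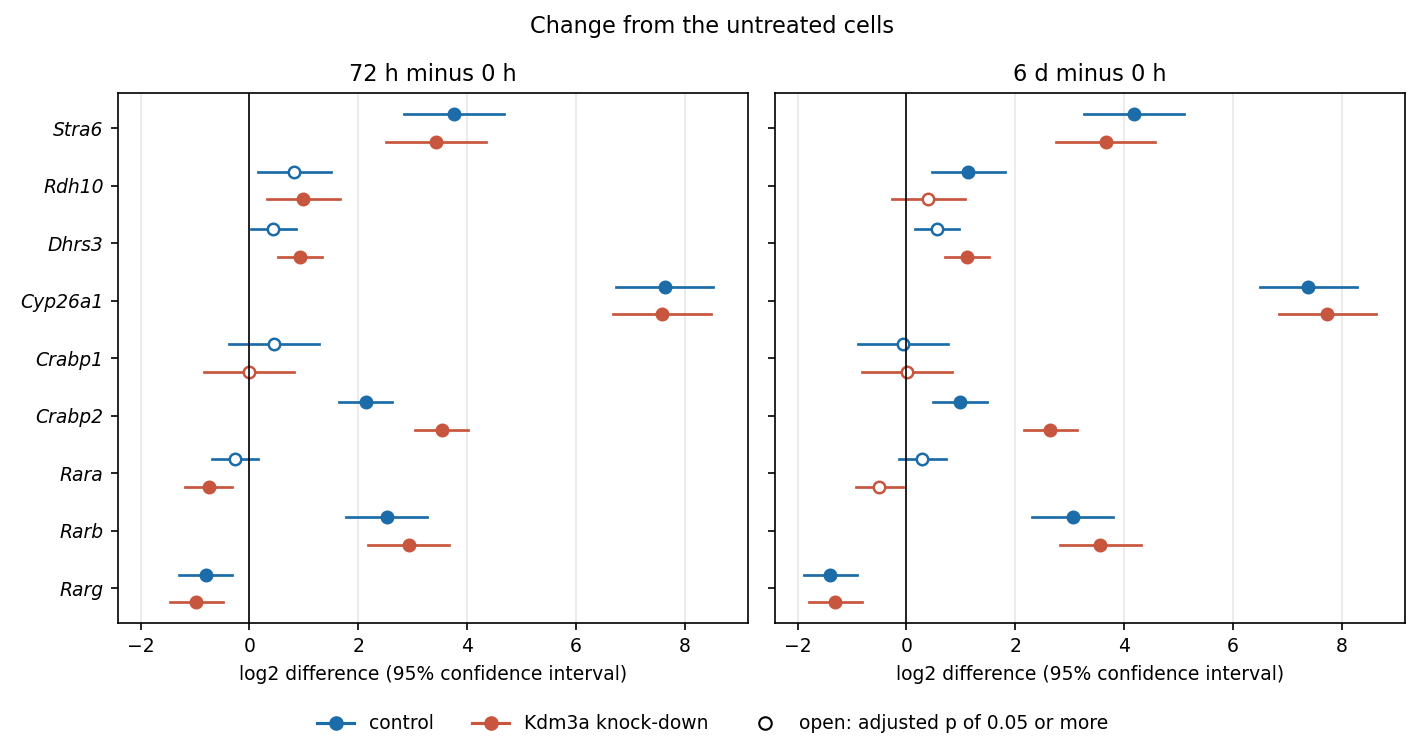
Log2 difference of each gene from the untreated cells of its own line (horizontal axis) at 72 h (left) and 6 d (right), with 95% confidence intervals from limma, control cells in blue and knock-down cells in red, and filled points for an adjusted p under 0.05. Cyp26a1 lies above 7 in all 4 comparisons, Stra6 and Rarb between 2.5 and 4.2, and Rarg below 0, which for control cells at 72 h does not hold with median centring.

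Knock-down and control cells were then compared at each stage, the question the series was made for. None of the 9 genes passed the test at 0 h, 72 h or 6 d or averaged over the stages, where 0.0516%, 0.00861%, 0% and 0.413% of all genes did. At an unadjusted p under 0.05 there were 1, 1, 3 and 1 of the 9 genes, against 8.15%, 3.45%, 7.85% and 12% of all genes. The differences of the 8 genes other than Crabp2 lay between -0.57 (Rarb) and 0.57 (Rara) at 0 h, between -0.43 (Stra6) and 0.36 (Dhrs3) at 72 h, and between -0.87 (Rdh10) and 0.42 (Crabp1 and Dhrs3) at 6 d. With 2 arrays a group the intervals were wide: that of Cyp26a1 at 72 h ran from -1.06 to 0.73, and that of Stra6 at 6 d from -1.54 to 0.30. Differences within such intervals could have gone undetected, and so could larger ones, since the intervals are not adjusted over all genes. At 6 d, Crabp2 (1.23) and Kdm3a itself (-1.57) were not called as first fitted. Kdm3a was not called at 0 h either (-1.07), though it passed at 0 h and 6 d with the authors' own normalization (adjusted p = 0.0186 and 0.00437). At 72 h Kdm3a was called (-1.73), a call lost in each fit that left out 1 array of that stage (-1.78 to -1.67). The test thus missed the knock-down itself at 0 h and 6 d.

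Crabp2 differed most between the lines after treatment. Knock-down arrays were below control arrays at 0 h (5.41 and 5.80 against 6.18 and 5.90), above them at 72 h (9.17 and 9.11 against 8.33 and 8.04) and above them at 6 d (8.35 and 8.16 against 7.10 and 6.95). The lines did not overlap at any stage, as was the case for 18.7% of genes in the lower direction at 0 h, and for 19.6% and 13.8% in the higher direction at 72 h and 6 d. The difference was -0.44 at 0 h (SE 0.22, adjusted p = 0.712), 0.96 at 72 h (1.94-fold, 95% interval 0.47 to 1.45, unadjusted p = 0.00127, adjusted p = 0.847) and 1.23 at 6 d (2.35-fold, 95% interval 0.74 to 1.72, unadjusted p = 1.82e-04, adjusted p = 0.159). Averaged over the stages it was 0.58 (SE 0.13, adjusted p = 0.0842), which passed with the authors' own normalization (0.43, adjusted p = 0.0157), with a background offset of 50 (0.55, adjusted p = 0.0302), with a block for the 3 arrays named above (0.58, adjusted p = 0.0487) and without knock-down 6 d replicate 2 (0.62, adjusted p = 0.0417). The difference between the lines in the change from 0 h was 1.40 by 72 h (SE 0.32, unadjusted p = 0.00103, adjusted p = 1.00) and 1.67 by 6 d (SE 0.32, unadjusted p = 2.59e-04, adjusted p = 0.503), and 0% of genes passed these tests of the difference in change. Crabp2 thus did not pass the correction over all genes in these comparisons as first fitted. Beside these values, the summed intensity of the stem cell markers at 72 h was 46950 to 48835 in knock-down cells against 60501 to 66335 in control cells, and that of the primitive endoderm markers 10660 to 10719 against 13327 to 14873. At 6 d the sums were 31155 to 50157 against 52239 to 55657 and 11899 to 13829 against 17536 to 17565. The 4 tested of 8 visceral endoderm markers summed to 791 to 873 against 1358 to 1840 at 72 h and to 477 to 982 against 1381 to 2414 at 6 d. Parietal endoderm sums of the lines overlapped at both stages (90578 to 111848 against 95148 to 98972, and 94413 to 163812 against 95693 to 155796). Untreated cells also differed in Gata6, an endoderm factor undetected in control cells (mean 5.24, n = 2) and detected in knock-down cells (mean 7.05, n = 2). The summed primitive endoderm markers, Gata6 among them, were 993 to 1003 in knock-down cells at 0 h against 1007 to 1020 in control cells, and Gata4 was undetected in both. Of these 7 markers, 1 was detected on both control arrays at 0 h and 2 on both knock-down arrays. The sum therefore cannot show whether the markers near the detection limit differed as Gata6 did. The part of these markers in the Crabp2 difference was not tested.

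**Figure D4:**
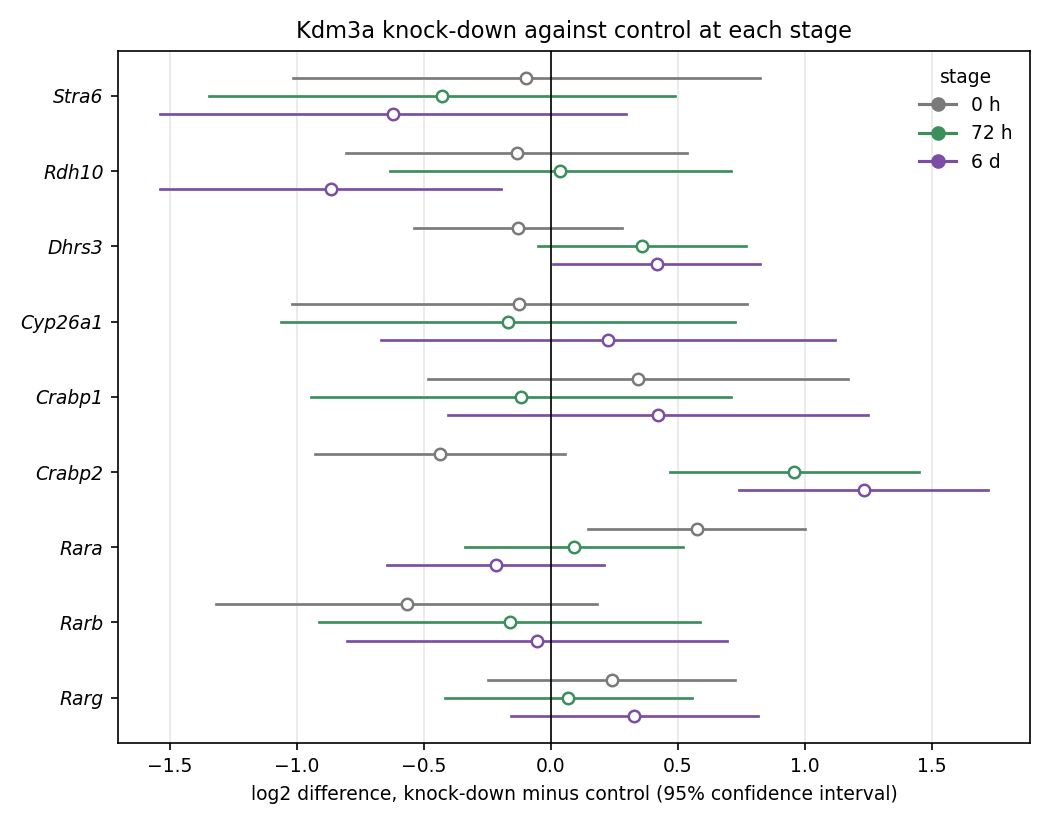
Log2 difference between knock-down and control cells (horizontal axis) for each of the 9 genes at 0 h (grey), 72 h (green) and 6 d (purple), with 95% confidence intervals from limma; open points mark an adjusted p of 0.05 or more, which holds for all. Crabp2 stands at -0.44, 0.96 and 1.23, and the intervals of the other genes at 72 h all include 0.

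Outside Crabp2, 3 genes had an unadjusted p under 0.05 in a comparison of the lines, and none passed the correction. Rara was 0.57 higher in untreated knock-down cells (unadjusted p = 0.0130, adjusted p = 0.395, at least 1.26-fold), the group without which it would not have passed the filter. Rdh10 was 0.87 lower in knock-down cells at 6 d, where it was undetected in them (unadjusted p = 0.0160, adjusted p = 0.473, at least 1.29-fold lower). Dhrs3 was 0.42 higher in knock-down cells at 6 d (unadjusted p = 0.0468, adjusted p = 0.623). Among the tests of whether the lines changed differently, Rara by 6 d (-0.79, unadjusted p = 0.0150, adjusted p = 0.687) was the only other with an unadjusted p under 0.05. The comparisons of the lines at 1 stage and the changes within a line share arrays, so they are not independent of each other.

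The remaining enzymes, carriers and Rxr receptors of retinoid metabolism were followed as a list of 48 genes, of which 42 were on the array and 23 passed the filter. In control cells 1 rose and 3 fell by 72 h (median change -0.18, against -0.02 over all genes), and 5 rose and 2 fell by 6 d (median -0.20 against -0.03). In knock-down cells the counts were 1 and 5 by 72 h (median -0.21 against 0.00) and 4 and 5 by 6 d (median -0.12 against -0.03). Of all genes, 14.8% and 22.2% were called by 72 h and 6 d in control cells and 16.4% and 22.3% in knock-down cells. With median centring the 72 h counts turned to 6 risers and 1 faller in control cells and to 4 and 2 in knock-down cells, where 34.5% and 37.3% of all genes rose. The named changes at 72 h in control cells were those of Ttr, which carries retinol-binding protein in plasma (1.39, at least 1.96-fold, adjusted p = 0.0370), the retinaldehyde carrier Rlbp1 (-1.20, at least 1.51-fold lower, adjusted p = 0.00464), and the reductases Akr1b8 (-0.94, adjusted p = 0.0300) and Dhrs4 (-0.82, adjusted p = 0.0489). In knock-down cells they were Cyp2s1 (-2.69, adjusted p = 0.00415), Retsat, a retinol saturase (-1.47, adjusted p = 0.0249), Cyp1b1 (1.01, adjusted p = 0.0465) and the dehydrogenase Aldh1a7 (at least 1.39-fold lower, adjusted p = 0.0110). Of these 8 calls, those of Rlbp1, Cyp2s1 and Aldh1a7 held in 2, 3 and 1 of the 4 fits that leave out 1 array, and the other 5 in 0. With median centring Akr1b8 was at -0.10, Dhrs4 at -0.02 and Retsat at -0.63, none of them called. Rlbp1 was detected only in control cells at 0 h, and Aldh1a7 only in knock-down cells at 0 h. Each passed the filter through the group where it was high, so its fall followed in part from the filter and is description only. By 6 d, the retinol-oxidising alcohol dehydrogenase Adh1 rose by 3.52 in control cells (at least 6.03-fold, adjusted p = 5.84e-06) and 3.39 in knock-down cells (at least 5.40-fold, adjusted p = 8.10e-06). Adh1 was undetected at 72 h in both lines, and it rose in the step with cAMP, by 3.13 (adjusted p = 3.00e-04) and by 3.10 (adjusted p = 2.78e-04). Adh1 was detected at 6 d alone and passed the filter through those groups, so its rise is description only. Cyp1b1, a monooxygenase that can act on retinoids, rose by 2.58 in control cells (at least 5.26-fold, adjusted p = 1.70e-04) and 2.26 in knock-down cells (at least 3.20-fold, adjusted p = 4.19e-04), and Cyp26b1, the sister enzyme of Cyp26a1, by 1.98 (at least 2.11-fold, adjusted p = 0.00536) and 2.19 (at least 2.27-fold, adjusted p = 0.00295). Ttr rose by 2.95 in control cells (at least 5.77-fold, adjusted p = 3.68e-04) and was at 1.15 in knock-down cells, not called, while no gene of the list passed the test of a difference in change between the lines. The lowest value in either line was that of Cyp2s1, a cytochrome that can oxidise retinoic acid, which by 6 d fell by 2.53 in knock-down cells (adjusted p = 0.00370) and fell by 1.62 in control cells (adjusted p = 0.0352). The control call of Cyp2s1 was lost in 3 of the 4 fits that leave out 1 array (adjusted p up to 0.231), without the 3 arrays named above and with no detection filter, and those of Adh1, Ttr, Cyp1b1 and Cyp26b1 by 6 d in none. None of the 23 was called between the lines, with 3, 1 and 4 at an unadjusted p under 0.05 at 0 h, 72 h and 6 d, against 8.15%, 3.45% and 7.85% of all genes.

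Of 18 coactivators and corepressors that retinoic acid receptors use, 16 were on the array and 14 were tested. In control cells 1 rose and 0 fell by 72 h, where 14.8% of all genes were called, and 0 rose and 2 fell by 6 d, against 22.2%. In knock-down cells 1 rose and 1 fell by 72 h, against 16.4%, and 0 rose and 1 fell by 6 d, against 22.3%. Crebbp, a histone acetyltransferase and coactivator, was the riser by 72 h in both lines (1.51 in control cells, adjusted p = 0.00374, and 1.25 in knock-down cells, adjusted p = 0.00987), and it fell again by 1.40 from 72 h to 6 d in both (adjusted p = 0.0259 and 0.0196). With median centring the 72 h counts were 6 risers in control cells and 7 in knock-down cells, with 0 fallers, in a setting where 34.5% and 37.3% of all genes rose. All fits that leave out 1 array kept the control rise, and 2 of 4 kept the knock-down rise (adjusted p up to 0.0907), while the later fall was kept by 0 of 4 in control cells (adjusted p up to 0.211) and 1 of 4 in knock-down cells (up to 0.149). Tbl1xr1, a subunit of the corepressor complex, fell by 0.97 in control cells (adjusted p = 0.0118) and by 1.26 in knock-down cells (adjusted p = 0.00264) by 6 d. In knock-down cells it was also called at 72 h (-0.86, adjusted p = 0.0279). The coactivator Ncoa3 fell by 1.24 in control cells by 6 d (adjusted p = 0.0209, at least 1.53-fold). The control calls of Tbl1xr1 and Ncoa3 each held in 1 of 4 such fits (adjusted p up to 0.0699 and 0.0987). With the mean of its probes no Tbl1xr1 call held, and the knock-down difference at 72 h changed sign. With median centring the control call of -0.97 was -0.75 and the knock-down difference at 72 h was -0.02, and neither was called. No cofactor was called between the lines, and 2, 0 and 0 had an unadjusted p under 0.05 at the 3 stages, against 8.15%, 3.45% and 7.85% of all genes.

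A list of 22 known retinoic acid targets outside the pathway had 19 genes on the array and 15 tested. By 72 h, 10 rose and 1 fell in control cells (median change 2.36, against -0.02 over all genes) and 11 rose and 1 fell in knock-down cells (median 2.12 against 0.00). By 6 d it was 11 and 1 in both (medians 2.58 and 2.47). The shares called over all genes were 14.8% and 16.4% by 72 h and 22.2% and 22.3% by 6 d, in control and knock-down cells. With median centring the 72 h counts were 12 and 1 in control cells and 13 and 0 in knock-down cells, where 34.5% and 37.3% of all genes rose. The largest rises by 72 h in control cells were those of the homeobox genes Hoxb4 (4.24, at least 11.7-fold, adjusted p = 5.29e-06), Meis2 (3.74, 13.3-fold, adjusted p = 2.07e-05), Meis1 (3.30, 9.84-fold, adjusted p = 5.11e-06) and Cdx1 (3.17, at least 5.03-fold, adjusted p = 1.62e-05). In knock-down cells these 4 rose by 4.28, 3.75, 3.11 and 2.93, and all 8 of these calls held without any 1 array. By 6 d Tgm2, a transglutaminase induced by retinoic acid, was up by 4.21 in control cells (18.5-fold, adjusted p = 6.19e-05) and by 3.97 in knock-down cells (15.7-fold, adjusted p = 1.01e-04). Gbx2, a homeobox gene named here after its values were seen, was the faller, as by 6 d it fell by 2.78 in control cells (adjusted p = 0.00239) and fell by 2.47 in knock-down cells (adjusted p = 0.00460). None of the 15 was called between the lines (1, 1 and 2 at an unadjusted p under 0.05, against 8.15%, 3.45% and 7.85% of all genes). The targets were in part picked as known risers, and the list overlaps genes that earlier results of these arrays had already shown.

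**Figure D5:**
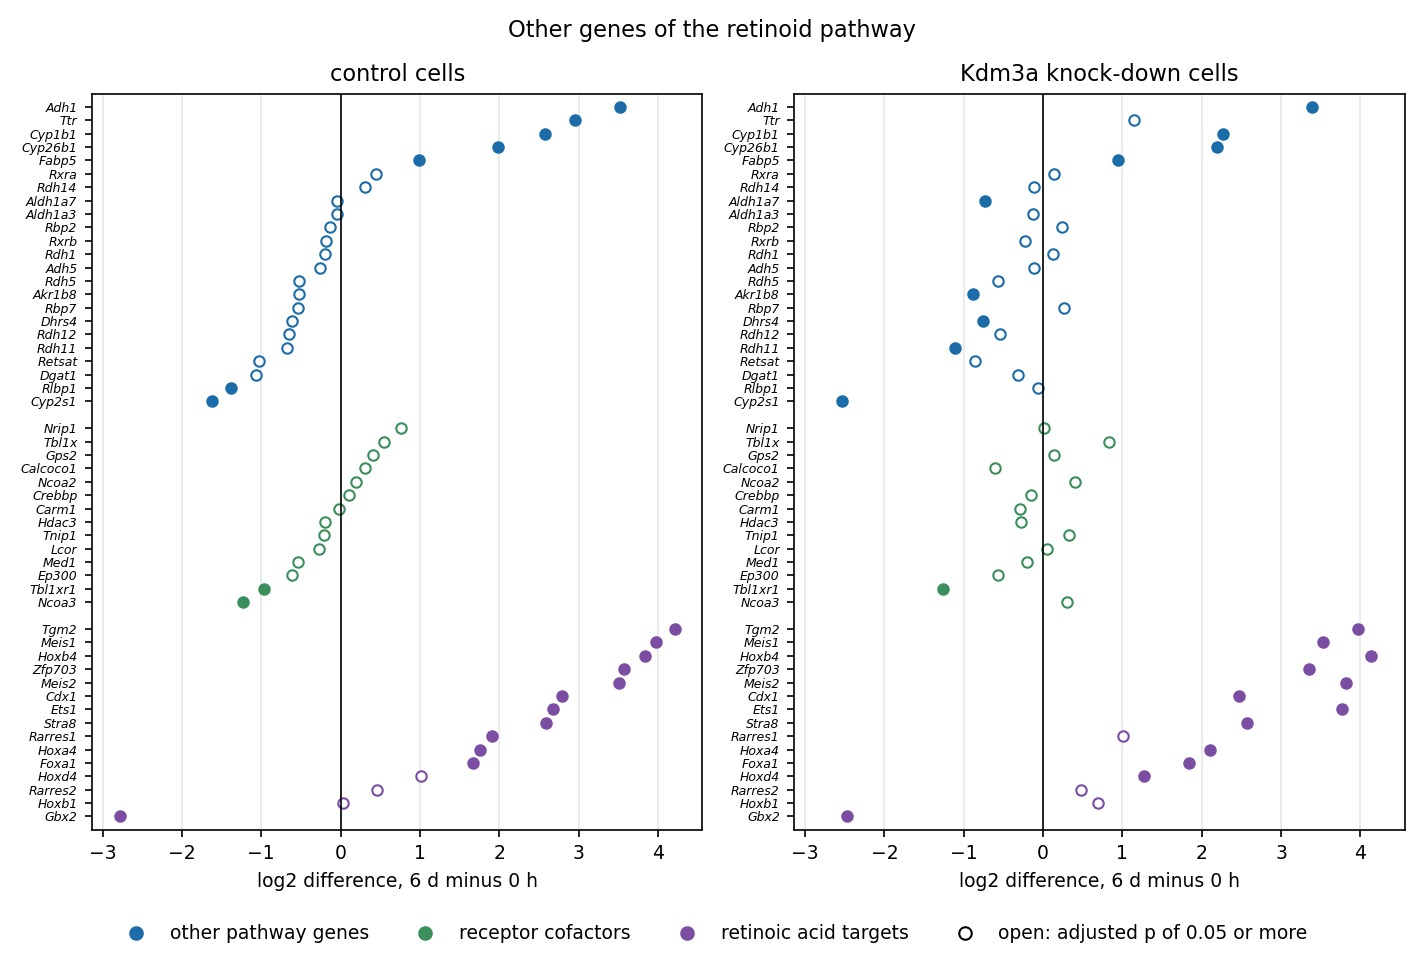
Log2 difference between 6 d and 0 h (horizontal axis) of the other pathway genes (blue), receptor cofactors (green) and retinoic acid targets (purple) in control cells (left) and knock-down cells (right), ordered by the control value, with filled points for an adjusted p under 0.05. Adh1 and Tgm2 lead their lists in control cells, Cyp2s1 and Gbx2 are at the low ends, and cofactors stay within 1.3 of 0.

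The 6 group means of each gene, centred on their own mean, were set against those of all other tested genes. The measure was the root mean square difference in log2 units over the 6 groups, a description in which the groups share arrays and stages. The genes nearest to Stra6 were Nrep (0.24), Meis2 (0.27) and Smarca2 (0.29), and those nearest to Rarb were Fndc3b (0.14), Cotl1 (0.17) and Rhobtb1 (0.17). Nearest to Crabp2 were Prtg (0.31), Gpc6 (0.31) and Rhob (0.37). Cyp26a1 had no close match: its nearest genes were Col4a2 (0.64), Foxq1 (0.65) and Plat (0.74). Nearest to Rarg were Napb (0.09), Thap3 (0.10) and Frrs1 (0.11). Among the 4 genes that rose by 72 h in both lines, Stra6 and Rarb were the closest pair (0.43), and Cyp26a1 and Crabp2 the most distant (2.55). Nearest to Rdh10 were Chrna5 (0.08), Akap5 (0.12) and Pik3ca (0.13), and nearest to Dhrs3 were Rpia (0.05), Pacs1 (0.06) and Pdlim2 (0.07). Nearest to Crabp1 and Rara, whose group means spanned 0.51 and 0.84, were among others Trpm4 (0.06) and Olfr417 (0.04). In none of the 6 groups did both arrays detect either of these.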

How the data were processed

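Transcripts of F9 cells were measured on 12 one-colour Illumina arrays, 2 in each of 6 groups, grouped by the labels. The authors deposited non-normalized probe intensities, and beside each intensity a detection p-value, per the file headers; which software summarised the beads, the sources used here do not state. A second table that they deposited holds processed linear intensities, whose columns share 1 distribution (medians 184.1 to 184.4) and which served as an alternative only.

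Background was corrected by nec of limma 3.58.1 (R 4.3.3, offset 16), and values were quantile normalized and put on the log2 scale. The offset shrinks changes of dim genes. The brightest tested probe stood for a gene. Symbols came from the platform annotation: 34885 of 45281 probes had 1 symbol, 18 several and 10378 none. One mean per group was fitted (lmFit, eBayes, 6 residual and 5.01 prior degrees of freedom) gave 13 comparisons, with Benjamini-Hochberg adjustment over 11621 genes in each. The number of arrays limits the precision, and p-values measure the spread between arrays that the labels call biological replicates. The code was tested on simulated data.

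The members, lists, tests and the rule for naming genes were chosen with earlier results of these data known. The rule names the 9 genes, Kdm3a, up to 4 called genes of each list and comparison with the largest change, and the 3 nearest genes of each pattern. Same-numbered arrays of the lines deviated together at 0.135, 0.0732 and 0.542, from the first stage to the last. The value of the last stage was the highest of 15 such values, which ran from -0.111 to 0.542. The numbers were not taken as pairs at any stage. Whether same-numbered arrays of the last stage belong together was not tested, and the lines were compared there without pairing. Promoter sequences are from RefSeq (GRCm38.p6), scanned with Python 3.11.15. Proteins were not compared here.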

Additional observations from a re-analysis of the deposited data

How the results depend on the processing

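Alternatives were the authors' own normalization, median centring, a background offset of 50, no detection filter or a stricter one (p under 0.01), the mean of a gene's probes, a fit on the compared arrays alone, the replicate block, and leaving out each array in turn, where a lone array is assumed to vary like the other groups. A block for those 3 arrays with alike undetected probes, and a fit without them, were chosen after seeing the data. Of 440 alternatives of the 31 called differences (the 9 genes and Kdm3a), 386 kept the call and direction and 2 reversed, both with median centring at 72 h against 0 h: Rarg in control cells (0.041) and Kdm3a in knock-down cells (0.065) (the cause was not tested). Of 1527 alternatives of uncalled differences, 33 gave a call and 86 a change of sign. The count of called genes among the 9 moved as follows. For control 6 d against 72 h it was 2 with median centring (Crabp2 and Rarg), 0 on the compared arrays alone, 2 without the 3 arrays (Stra6 and Crabp2), and 0 in each fit without 1 array. For knock-down 72 h against 0 h it was 4 to 6 without 1 array. For knock-down 6 d against 72 h it was 1 (Crabp2) with the authors' normalization, offset 50, the stricter filter, the replicate block and the block for 3 arrays, 2 with median centring (Crabp2 and Rarg) and 1 (Stra6) without the 3 arrays. For knock-down against control averaged it was 1 (Crabp2) with the authors' normalization, offset 50 and the block for 3 arrays, and 0 to 1 without 1 array. The replicate block changed 1 of these counts by over 1.5 times, the one named. Over all genes, calls of control 72 h against 0 h were 1719 (942 up, 777 down), 4225 with median centring (4009 up, 216 down) and 606 to 865 without 1 array. For control 6 d against 72 h they were 294 (179 up, 115 down), 182 to 2211 (with median centring 182 up, 2029 down) and 26 to 173, and for 6 d against 0 h 2579 (1417 up, 1162 down; 1629 and 572 with median centring), 1807 to 3379 and 1428 to 1952. In knock-down cells they were 1905 (1021 up, 884 down), 1839 to 4621 (4333 up, 288 down) and 817 to 1144, then 445 (267 up, 178 down), 19 to 2216 (220 up, 1996 down) and 28 to 523, then 2596 (1408 up, 1188 down; 1725 and 503 with median centring), 1059 to 3549 and 1562 to 2889. Between the lines they were 6, 1, 0 and 48 at 0 h, 72 h and 6 d and averaged, with 0 to 6, 1 to 6, 0 to 8 and 41 to 374 under other settings, and 0, 0, 0 to 69 and 3 to 354 without 1 array. Signal over background limits Rdh10, Dhrs3, Crabp1 and Rara, each undetected on some arrays.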

Other observations

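Crabp1 was higher on replicate 2 than on replicate 1 in control cells at 0 h (6.07 against 5.20) and at 6 d (6.03 against 5.12) and in knock-down cells at 0 h (6.34 against 5.62), a spread as wide as any difference of that gene between groups. The other 2 detected probes of Kdm3a gave an averaged knock-down difference of -1.23 and -1.42, beside -1.45 for the probe used. Of the 3 probes of these genes detected on no array, 1 each is assigned to Stra6, Dhrs3 and Rarb.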
